A study of Mus musculus with 45 samples.

Results

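The 8 genes described here belong to the RGS family (regulators of G protein signalling) and were followed from resting B cells to plasma cells in mice: Rgs1, Rgs2, Rgs10, Rgs13, Rgs14, Rgs16, Rgs18 and Rgs19. They were taken by symbol from both deposited expression tables, which gave 8 of 28196 genes, and all 8 passed the filter on low values in both tables. Splenic B2 cells of C57BL/6 mice were enriched to a purity above 95% per the labels. They were sequenced before culture and at days 4, 7 and 10 of culture toward plasmablasts and plasma cells. The 45 libraries form 15 groups of 3. A wild-type (WT) genotype was compared with Prdm1 delta ex1A (called dEx1A here), an allele named for the loss of exon 1A of Prdm1, which encodes the plasma cell regulator Blimp-1. No source used here says whether replicates came from separate animals, so p-values measure only the spread between these libraries, which may be technical.

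The WT groups were uncultured cells at day 0, TLR cultures at days 4, 7 and 10, BCR cultures at days 4, 7 and 10, and LPS cultures at days 4 and 7. The dEx1A groups were TLR, BCR and LPS cultures at days 4 and 7. The TLR culture combined LPS (5 µg/mL) with irradiated L cells that express CD40L and with 50 ng/mL each of IL-5 and IL-4. The BCR culture used antibody fragments to IgM and IgG (12 µg/mL) in place of LPS. Cells left the L cells at day 2, and from day 4 both cultures received IL-6, APRIL, amino acids and lipids. What the cultures labelled LPS contained is not stated in the sources used here. The labels give 7-week-old males for day 0 and for the WT TLR and BCR groups, and 9-week-old females for the WT LPS groups and all dEx1A groups.

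RGS proteins bind the active, GTP-bound alpha subunit of heterotrimeric G proteins and speed its GTP hydrolysis. This ends signalling from receptors such as those for chemokines and sphingosine-1-phosphate. In B cells such receptors steer cells between follicle, germinal centre, blood and bone marrow, and RGS proteins set how strongly and how long a cell answers them. Rgs1 and Rgs13 are known as brakes on B cell chemotaxis, and Rgs13 marks germinal centre B cells in particular.

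The members fall into 3 subfamilies of the RGS proteins. Rgs1, Rgs2, Rgs13, Rgs16 and Rgs18 belong to the R4 group of small proteins that consist of little more than the RGS domain. Rgs10 and Rgs14 belong to the R12 group, in which Rgs14 also carries a Ras-binding domain and a GoLoco motif, and Rgs19 (also called GAIP) belongs to the RZ group. In GENCODE M21 (GRCm38), 4 of the R4 genes lie beside each other on the minus strand of chromosome 1: Rgs2 at chr1:143999338-144004161, Rgs13 at chr1:144138654-144177372, Rgs1 at chr1:144242296-144249242 and Rgs18 at chr1:144752683-144775435. Together they span 776 kb, with gaps of 134 kb, 64.9 kb and 503 kb. RefSeq lists Rgs genes alone as protein coding in the window around them, with Rgs21, not analysed here, between Rgs1 and Rgs18. Rgs16 lies apart on the plus strand at chr1:153740349-153745468, Rgs10 at chr7:128373621-128418758 (minus), Rgs14 at chr13:55369732-55384687 (plus) and Rgs19 at chr2:181688419-181693977 (minus).

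RefSeq promoter windows (GRCm38.p6, 250 bases before to 50 after the gene start) matched 5 of the 8 members, Rgs2, Rgs10, Rgs13, Rgs16 and Rgs19, but not Rgs1, Rgs14 and Rgs18. The windows of Rgs2 (chr1:144004100-144004399, minus strand), Rgs13 (chr1:144177323-144177622, minus strand) and Rgs16 (chr1:153740103-153740402, plus strand) are printed because Rgs2 and Rgs13 are neighbours whose values moved together, while Rgs16 took another course. Capitals mark matches, on either strand, to TGACG, the core of the cyclic-AMP response element.
Rgs2: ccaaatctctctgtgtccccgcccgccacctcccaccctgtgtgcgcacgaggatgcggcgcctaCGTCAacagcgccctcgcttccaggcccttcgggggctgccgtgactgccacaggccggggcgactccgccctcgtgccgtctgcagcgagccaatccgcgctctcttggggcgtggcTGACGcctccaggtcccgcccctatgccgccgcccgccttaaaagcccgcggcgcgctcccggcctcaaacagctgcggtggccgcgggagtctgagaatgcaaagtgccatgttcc
Rgs13: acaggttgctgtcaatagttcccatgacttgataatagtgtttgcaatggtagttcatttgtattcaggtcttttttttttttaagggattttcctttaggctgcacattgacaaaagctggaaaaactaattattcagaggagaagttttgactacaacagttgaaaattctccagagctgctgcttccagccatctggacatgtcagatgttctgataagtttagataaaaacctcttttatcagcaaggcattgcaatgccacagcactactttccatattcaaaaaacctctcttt
Rgs16: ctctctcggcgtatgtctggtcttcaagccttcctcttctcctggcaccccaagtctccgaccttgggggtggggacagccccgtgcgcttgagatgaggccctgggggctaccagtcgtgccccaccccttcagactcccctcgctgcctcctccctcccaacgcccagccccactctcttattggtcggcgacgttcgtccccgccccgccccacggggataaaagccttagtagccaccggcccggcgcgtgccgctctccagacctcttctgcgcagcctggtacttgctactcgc
The GC content was 70% for Rgs2, 36.7% for Rgs13 and 66% for Rgs16. The Rgs2 window held TGACG at 2 places, 1 on each strand, and 20.8% of 32851 RefSeq promoter windows held it at least once. None of the other 4 windowed members held it. The other motifs searched were the TATA box TATAAA, the full response element TGACGTCA, the AP-1 site TGANTCA, the E-box CACGTG, the Blimp-1 core AGNGAAAG, the Ets core AGGAAG and the octamer ATGCAAAT. Of these, the 3 windows printed held only AGGAAG, once, in Rgs16, a match found in 35.4% of all windows. One Rgs19 window held CACGTG, which 7.15% of windows hold. A match describes letters in a window and not a bound site.

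The deposited values are log2 expression after the authors' variance-stabilising transformation, in which 3.04 stands for 0 reads, and differences among low values are understated. Recovered depth was 15.1 to 19.6 M reads in 15 libraries (both WT LPS groups and the 3 dEx1A day 7 groups) and 20.3 to 35.6 M in the other 30. The shallow libraries also stood apart in the relative level of GC-rich genes, with offsets of 0.68 to 1.46 against -1.54 to 0.50. This division goes with genotype at day 7 of the TLR and BCR cultures and at day 4 of LPS, so there depth, GC offset and genotype cannot be told apart. It was drawn from recovered depth at 20 M reads, and no sequencing run is named in the sources used here. Genotypes share sex, age and depth group only at LPS day 7. At day 4 of TLR and BCR they share the depth group but differ in sex and age. Prdm1 itself was at 12.34 to 12.77 in WT LPS and 9.60 to 11.32 in dEx1A LPS libraries. In TLR at day 4 it was not lower in dEx1A (9.71 to 10.61) than in WT (9.66 to 9.86). A gene-level value of Prdm1 does not measure exon 1A. Feeder (fibroblast) marker reads summed to 91.7 to 333 RPM (depth-normalised reads) in TLR and BCR day 4 libraries of both genotypes, 2.82 to 7.13 in WT TLR day 7, 25.1 to 27.9 in dEx1A TLR day 7, 24.7 to 31 in WT BCR day 7, 286 to 434 in dEx1A BCR day 7, and 0.255 to 1.32 in all LPS libraries, where 4 to 10 of the 13 genes on that list were at 0.

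Levels of different genes were compared per transcript length, as RPKM (reads normalised to transcript length and depth). At day 0 the 8 genes together reached 318 to 406, and Rgs2 alone held 54% to 57.3% of that in each of the 3 libraries. Its median was 216, followed by 70.6 for Rgs19, 52.2 for Rgs1, and 0.316 for Rgs16 at the low end. In WT TLR cells at day 4 the sum was 46.1 to 50.7, Rgs19 held 42.3% to 55.1% and Rgs2 only 1.38% to 2.25%. Rgs19 or Rgs10 was the most abundant member per length in 13 of the 14 cultured groups. The exception was dEx1A TLR at day 4, where the median of Rgs1 was 23.1 and that of Rgs19 21.8, and their ranges overlapped.

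**Figure D1:**
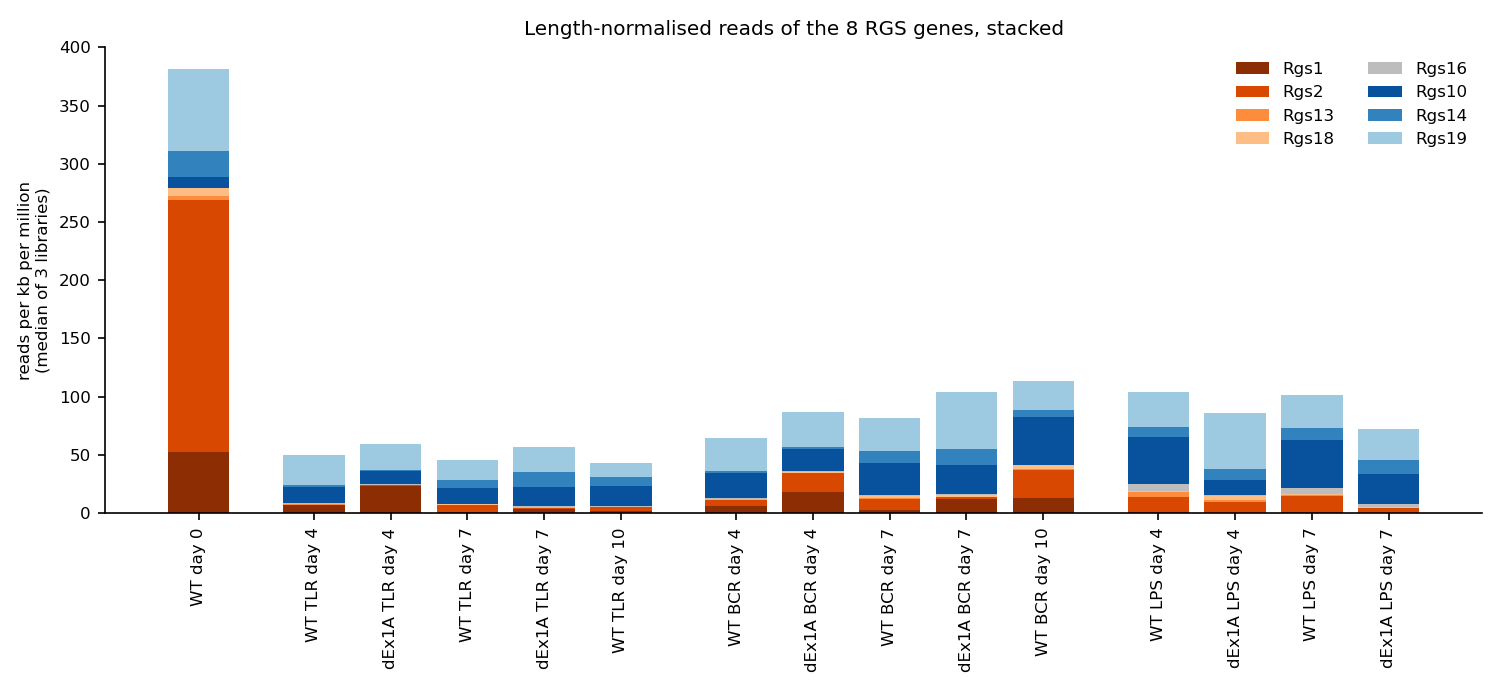
Length-normalised reads of the 8 members in each of the 15 groups, as stacked medians of 3 libraries in RPKM. The tall bar at day 0 is mostly Rgs2 (median 216), and Rgs10 and Rgs19 take the larger part of most cultured bars.

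Rgs2, which acts chiefly on the Gq class of alpha subunits, was the most abundant member at day 0 and fell steeply by day 4 of the TLR and BCR cultures. Its values were 13.43, 13.40 and 13.04 at day 0, 5.69, 5.54 and 6.10 in WT TLR cells at day 4, and 8.39, 7.94 and 7.86 in WT BCR cells at day 4. No library of one group reached the range of another. The day 4 falls were -7.51 ± 0.44 (log2 difference ± SE; adjusted p 1.93e-10, limma with Benjamini-Hochberg adjustment) in TLR and -5.23 ± 0.44 (adjusted p 2.07e-08) in BCR. A lower value can come from fewer cells of a type or from less RNA per cell, which bulk libraries cannot tell apart. By day 7 Rgs2 stood at 8.99, 8.66 and 8.88 in TLR, a rise of 3.07 ± 0.44 (adjusted p 2.95e-05), and at 9.27, 9.34 and 8.19 in BCR, where the step of 0.87 ± 0.44 did not pass (adjusted p 0.154). The 2 cultures, apart at day 4, overlapped at day 7. The test of TLR against BCR gave -2.29 ± 0.44 at day 4 (adjusted p 0.00284) and -0.09 ± 0.44 at day 7 (adjusted p 0.934). The difference between the steps, 2.20 ± 0.63, did not pass on its own test (adjusted p 0.0935). It passed after correction for GC content and length (2.08, adjusted p 0.0328) and when the groups compared were fitted alone (adjusted p 0.0168).

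Rgs1, a brake on responses to CXCL12 and CXCL13, varied even among resting libraries, at 12.07, 11.70 and 10.42. WT day 4 values were 8.72, 8.59 and 9.42 in TLR and 8.72, 8.28 and 8.94 in BCR, all below day 0. The falls were -2.49 ± 0.59 (adjusted p 0.00191) and -2.75 ± 0.59 (adjusted p 0.000761). Unlike Rgs2 its mean went lower again at day 7, to 7.70 in TLR and 7.72 in BCR, but these steps of -1.21 and -0.93 did not pass (adjusted p 0.122 and 0.26). The BCR day 7 libraries spread from 6.60 to 8.78. The lowest WT values of Rgs1 were in LPS cells at day 4, at 5.55, 5.86 and 5.91, or 34 to 43 reads per library. That fall from day 0 was -5.62 ± 0.41 (adjusted p 3.63e-13), and -4.90 after correction for GC content and length.

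Rgs13 was highest in resting cells (6.36 RPM from summed reads) and in LPS cells at day 4 (6.32 in WT and 2.51 in dEx1A). It was at 1.48 RPM or less in every other group. Its day 0 libraries held 95, 178 and 133 reads (values 6.43, 7.33 and 6.85), and the WT LPS day 4 libraries 131, 102 and 104 reads (7.12, 6.88 and 7.15). These groups overlapped (difference 0.18 ± 0.33, adjusted p 0.671), although the correction for GC content and length gave 0.74 (adjusted p 0.0447). In WT TLR cells at day 4 the libraries held 0, 1 and 1 read, and in dEx1A TLR cells at day 4 none in 75.5 M reads, which allows up to 0.0397 RPM. From summed reads, day 0 stood 283-fold above WT TLR day 4 (95% exact interval 77.7 to 2341, counting error only). In WT BCR at day 4 the counts were 13, 3 and 6 reads, and by day 7 they were 35, 49 and 19. Both WT cultures rose from day 4 to day 7 on the log2 scale, TLR by 1.00 ± 0.30 (adjusted p 0.0136) and BCR by 1.21 ± 0.30 (adjusted p 0.0043). The TLR rise starts from 2 reads in all, and its call was lost without TLR day 4 replicate 1 (adjusted p 0.0623) or TLR day 7 replicate 3 (adjusted p 0.0805).

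Rgs18, known for restraining platelet activation, fell from 7.89, 8.25 and 7.83 at day 0 to 4.02, 4.17 and 4.40 in WT TLR and 4.32, 3.79 and 3.94 in WT BCR at day 4. These falls were -3.79 ± 0.53 (adjusted p 1.09e-05) and -3.97 ± 0.53 (adjusted p 5.69e-06), and the later values rest on 3 to 14 reads per library. At day 7 Rgs18 was higher again in BCR, at 7.00, 6.58 and 5.52 (2.35 ± 0.53, adjusted p 0.00226). The TLR values were 6.24, 5.33 and 5.80 (1.59 ± 0.53, adjusted p 0.025). The TLR call was lost without any 1 of 4 libraries, day 4 replicate 1 or 2 or day 7 replicate 1 or 3 (adjusted p 0.0598 to 0.098). Platelet markers summed to 8.89 to 11.2 RPM at day 0, 0.667 to 2.58 at WT TLR and BCR day 4, where 3 of 12 were at 0 in each group, and 3.91 to 15.4 at day 7. In these WT groups Rgs18 moved with the platelet marker reads. In LPS at day 4 the sums were 1.09 to 1.61 RPM in dEx1A, with an Rgs18 mean of 6.98. They were 2.13 to 3.19 RPM in WT LPS at day 4, with a mean of 5.40. In dEx1A TLR at day 7 they were 4.71 to 6.62 RPM, with a mean of 4.36. The part of platelet RNA in the level of Rgs18 was not tested.

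Rgs16, an R4 member induced in activated lymphocytes and active on Gi and Gq, went the other way. It was the least abundant member at day 0, at 5.17, 4.71 and 4.31, or 9 to 29 reads. WT day 4 values were 5.96, 5.67 and 5.26 in TLR and 5.97, 5.90 and 5.81 in BCR, rises of 0.90 ± 0.29 (adjusted p 0.0159) and 1.16 ± 0.29 (adjusted p 0.00266). The TLR rise was lost without day 0 replicate 3 (adjusted p 0.0887) or TLR day 4 replicate 1 (adjusted p 0.0779). WT LPS cells stood well above both, at 7.93, 8.20 and 8.18 at day 4 and 8.08, 8.40 and 8.30 at day 7. The LPS rise over day 0 was 3.37 ± 0.20 (adjusted p 3.28e-15), and 3.17 after correction for GC content and length. In TLR cells Rgs16 fell again by day 7, to 4.55, 4.81 and 5.02 (-0.84 ± 0.29, adjusted p 0.0311), a call lost without any 1 of 4 libraries, day 4 replicate 1 or 2 or day 7 replicate 1 or 2 (adjusted p 0.0633 to 0.135).

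Rgs10, an R12 member active on Gi and best known from microglia and platelets, was low at day 0 (7.14, 7.14 and 7.88) and higher later. In WT BCR libraries it was 8.33, 8.09 and 8.45 at day 4, 9.05, 9.40 and 9.03 at day 7, and 10.08, 9.86 and 9.89 at day 10, with no overlap between successive groups. The steps were 0.90 (adjusted p 0.0016), 0.87 (adjusted p 0.00402) and 0.78 (adjusted p 0.0164), each ± 0.21. The last call was lost without BCR day 7 replicate 1 or 3 or BCR day 10 replicate 1 (adjusted p 0.0554 to 0.0696). In WT TLR libraries the day 4 values of 7.76, 7.42 and 7.76 overlapped day 0 (0.26 ± 0.21, adjusted p 0.331), and day 10 values of 8.82, 9.45 and 9.50 exceeded day 0 by 1.87 ± 0.21 (adjusted p 9.04e-07). WT LPS cells were already at 9.24, 9.39 and 9.56 by day 4 (2.01 ± 0.22, adjusted p 3.25e-09).

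Rgs14, the R12 scaffold that joins Gi and Ras signalling, fell at day 4 and rose again by day 7. Its libraries read 9.76, 9.63 and 9.99 at day 0, 6.72, 6.71 and 5.75 in WT TLR at day 4, and 8.47, 9.36 and 8.95 in WT TLR at day 7. BCR cells gave 6.55, 7.15 and 5.76 at day 4 and 8.52, 9.09 and 9.78 at day 7. The falls were -3.40 ± 0.42 (adjusted p 2.87e-06) and -3.31 ± 0.42 (adjusted p 3.54e-06). The rises at day 7 were 2.53 ± 0.42 (adjusted p 0.000132) and 2.64 ± 0.42 (adjusted p 0.000104). By day 10 the TLR value differed from day 0 by -0.05 ± 0.42 and overlapped it (adjusted p 0.934). The BCR value at day 10 lay below day 0 without overlap (-0.83 ± 0.42, adjusted p 0.11), a difference that passed with centring (-1.19, adjusted p 0.0112), with correction for GC content and length (-0.89, adjusted p 0.00297) and with these groups fitted alone (adjusted p 0.041). LPS cells read 8.67, 8.43 and 8.60 at day 4 (-1.23 ± 0.32, adjusted p 0.00177).

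Rgs19, the RZ member that binds alpha subunits of the Gi class, had the narrowest range, 1.54 between its highest and lowest group means against 2.56 to 7.51 for the others. It fell from 10.77, 10.70 and 10.81 at day 0 to 9.31, 9.33 and 9.01 in TLR and 9.46, 9.66 and 9.32 in BCR at day 4. These falls of -1.54 ± 0.15 (adjusted p 9.79e-08) and -1.28 ± 0.15 (adjusted p 9.15e-07) left day 0 above every cultured group. Its means lay between 9.58 and 9.93 in WT groups from day 7 on. The step from day 4 to day 7 passed in BCR (0.41 ± 0.15, adjusted p 0.04), a call lost without any 1 of 4 libraries (adjusted p 0.0682 to 0.152), and missed in TLR (0.37 ± 0.15, adjusted p 0.0595).

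**Figure D2:**
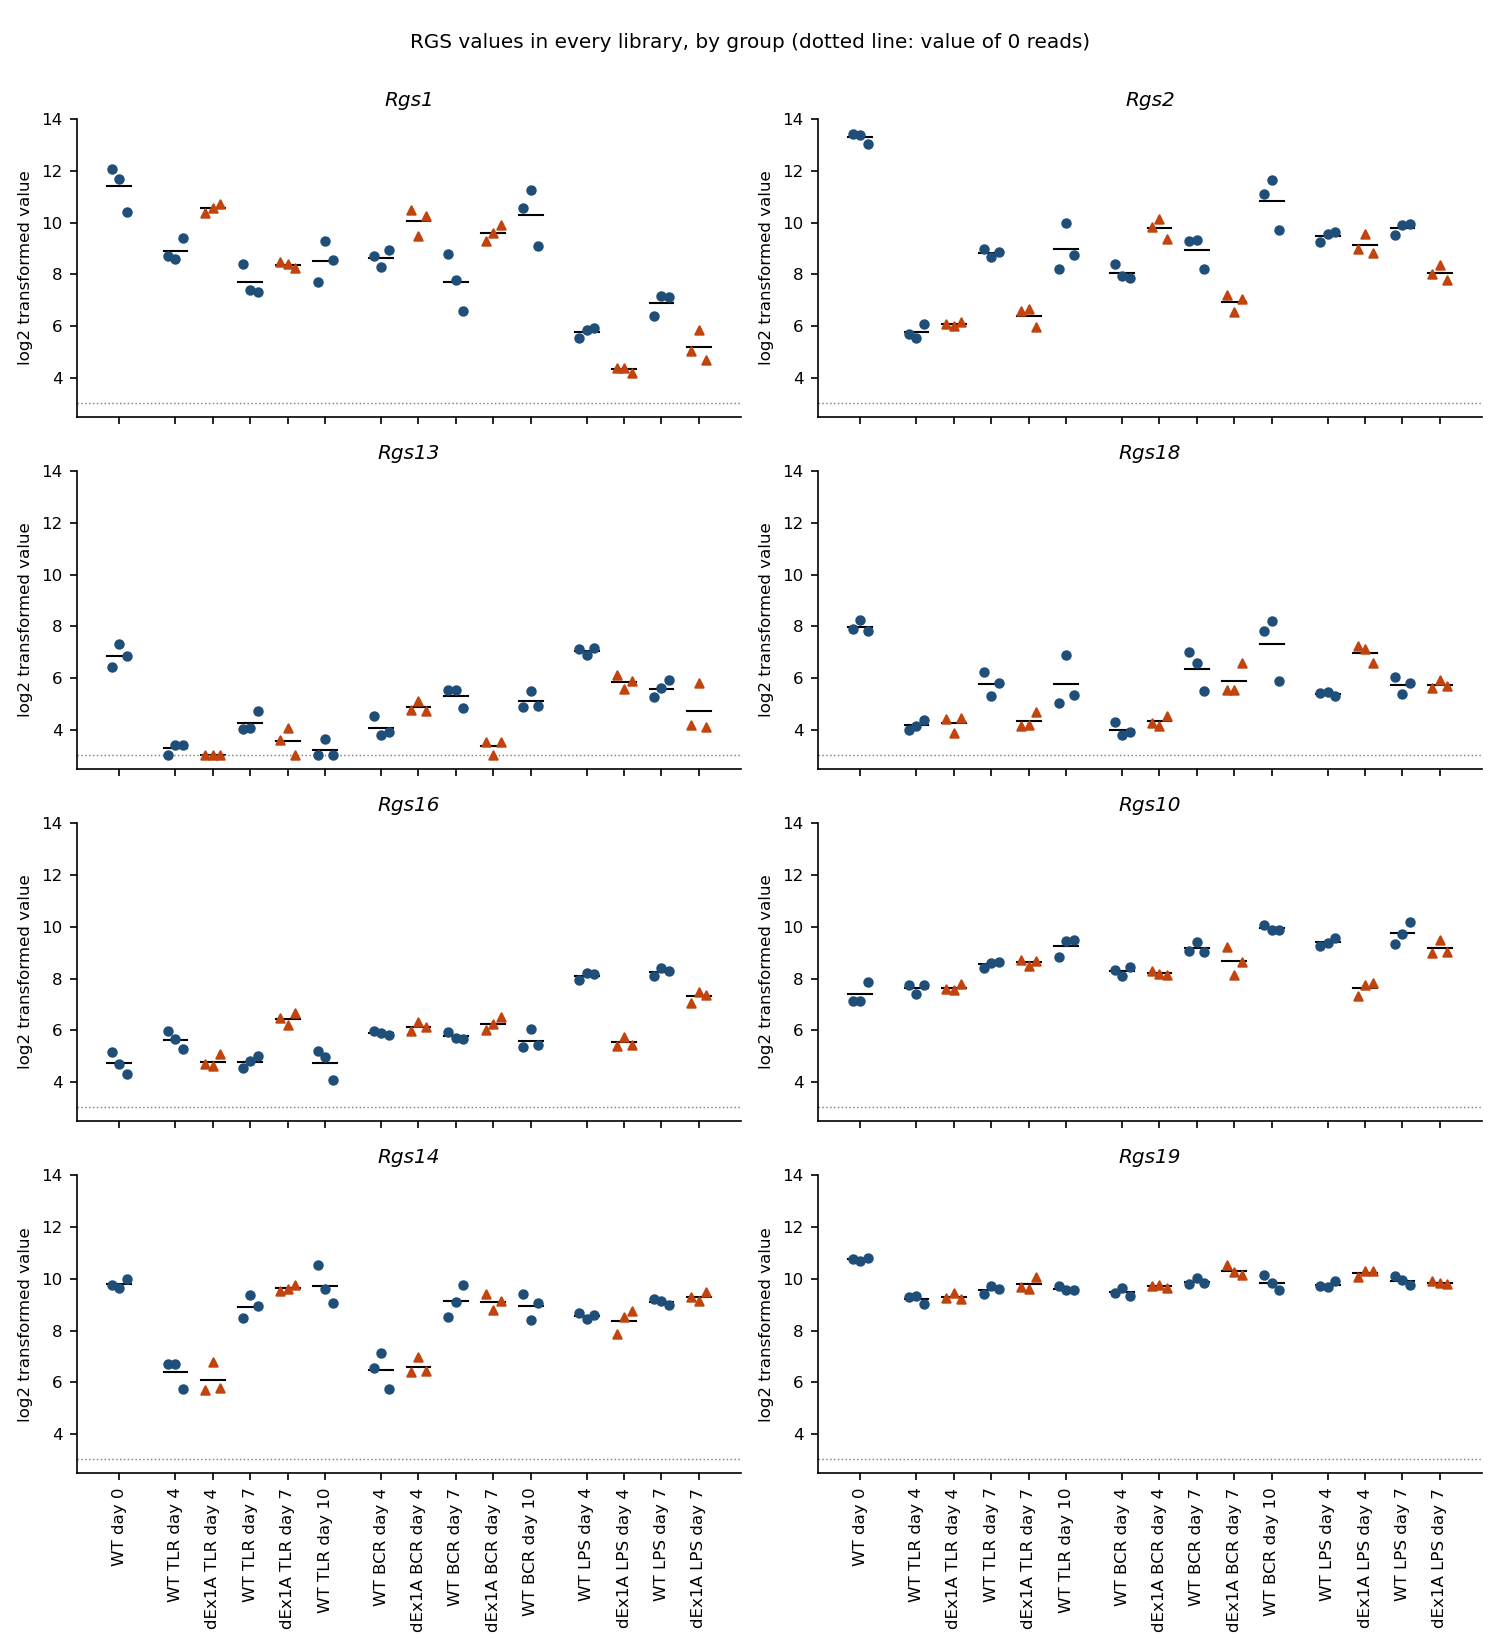
Deposited log2 values of each member in every library, by group; circles are WT libraries, triangles dEx1A libraries, black bars group means of 3 and the dotted line the value of 0 reads (3.04). Rgs2, Rgs13, Rgs14 and Rgs18 drop from day 0 to day 4 in the TLR and BCR cultures, the Rgs1 means are lowest in LPS cultures, and Rgs16 is highest in WT LPS.

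Counted over members, 7 of 8 passed between day 0 and WT TLR day 4 (1 higher, 6 lower), where 48.3% of the 19497 genes tested passed. All 8 passed in WT BCR (2 higher, 6 lower), against 50.6% of genes. Median differences over the members were -2.94 and -2.76, beside 0.01 and 0.00 over all genes. The members were chosen with earlier results of these data known, so these medians are a description only. From day 4 to day 7, 6 passed in TLR (5 higher, 1 lower; 36.3% of genes) and 5 in BCR (5 higher; 30.5%). Without TLR day 4 replicate 1, the TLR count fell to 3. From day 7 to day 10, 2 passed in TLR (1 higher, 1 lower; 8.2%), none with the count model on recovered reads, and 3 in BCR (3 higher; 16.7%). The 2 TLR calls from day 7 to day 10, Rgs10 (0.71 ± 0.21, adjusted p 0.047) and Rgs13 (-1.04 ± 0.30, adjusted p 0.0388), were each lost without any 1 of 5 libraries (adjusted p 0.0555 to 0.183). Rgs13 there went from 20 reads to 1. Between day 0 and day 10, 6 passed in TLR (1 higher, 5 lower; 46%) and 5 in BCR (2 higher, 3 lower; 52.4%). Rgs2 remained below day 0 at day 10 by -4.32 in TLR (adjusted p 2.64e-07) and -2.47 in BCR (adjusted p 0.000151), and Rgs13 by -3.62 and -1.76. Rgs10 was higher than at day 0 by 2.56 in BCR (adjusted p 1.81e-08), and Rgs19 lower by -1.14 in TLR and -0.91 in BCR. These comparisons share the day 0 libraries and are not independent of each other.

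TLR and BCR cultures differed in few members. At day 4 only Rgs2 passed (7.57% of genes). At day 7 only Rgs13 passed, lower in TLR (-1.02 ± 0.30, adjusted p 0.0487; 6.27% of genes), and that call was lost without any 1 of 4 libraries (adjusted p 0.144 to 0.203). At day 10, 3 were lower in TLR (14.4% of genes), namely Rgs2 (-1.85), Rgs10 (-0.69) and Rgs13 (-1.87, with 1 read against 57). Rgs2 lost its call without TLR day 10 replicate 1 (adjusted p 0.0729) or BCR day 10 replicate 1 or 2 (adjusted p 0.0521 and 0.0939), and Rgs10 without the same libraries (adjusted p 0.108 to 0.191). Beside these 3, Rgs1, Rgs16 and Rgs18 also passed, 6 members in all, when BCR day 10 replicate 3 was left out. The share of all genes in that fit is not given. That replicate held 967 RPM of macrophage markers, the other BCR day 10 replicates 8562 and 9784. Leaving out BCR replicates 1 and 2 and TLR replicate 2 instead left 1 BCR library. The differences were then -0.965 for Rgs1, -1.25 for Rgs2, -0.73 for Rgs10, -1.89 for Rgs13, -0.805 for Rgs16 and -0.705 for Rgs18. No member passed the test of TLR step less BCR step, neither from day 4 to day 7 (1.69% of genes passed) nor from day 7 to day 10 (0.0667%). At an unadjusted p under 0.05 there were 1 and 2 members, and the count model on recovered reads also gave 0 and 0. Without BCR day 10 replicate 3, Rgs2 passed in the later step (-2.32, adjusted p 0.0191).

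Rgs1, Rgs2 and Rgs18 spread widely among the day 10 libraries. In BCR replicates 1, 2 and 3, Rgs1 was 10.56, 11.26 and 9.10, Rgs2 11.09, 11.66 and 9.72, and Rgs18 7.84, 8.22 and 5.91. In TLR, replicate 2 was highest for all 3, at 9.28, 9.97 and 6.91. The same libraries were highest in the list of 14 macrophage and monocyte markers, all 14 detected, whose reads summed to 8562, 9784 and 967 RPM in the BCR replicates and 195, 1807 and 316 in the TLR replicates, beside 187 to 451 at BCR day 7. Platelet markers followed, at 317, 212 and 7.75 RPM in BCR. BCR replicates 1 and 2 and TLR replicate 2 were then left out, chosen after their values were seen. This left 1 BCR library at day 10, so only effect sizes are given. From BCR day 7 to day 10 the step of Rgs1 went from 2.59 ± 0.59 (adjusted p 0.00589) to 1.38. That of Rgs2 went from 1.89 ± 0.44 (adjusted p 0.00717) to 0.79, and that of Rgs10 from 0.78 to 0.73. Against day 0, the BCR day 10 difference went from -1.09 to -2.30 for Rgs1 and from -0.67 to -2.08 for Rgs18. With all libraries neither passed. Single libraries moved calls at BCR day 10. Rgs1 passed against day 0 without day 0 replicate 3 or BCR day 10 replicate 2 (adjusted p 0.0474 and 0.0493), and Rgs16 (0.88, adjusted p 0.017) was lost without the same libraries (adjusted p 0.0933 and 0.0918). Rgs18 passed from BCR day 7 to day 10 without replicate 3 of day 10 (1.66, adjusted p 0.0147). Rgs10 differed little between these libraries, at 9.86 to 10.08 in BCR. Neutrophil markers also spread widely, from 4.22 to 3082 RPM among the BCR day 10 libraries and from 2.24 to 69.7 among the TLR day 10 libraries. The part of macrophage, platelet or neutrophil RNA in these levels was not tested further.

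**Figure D3:**
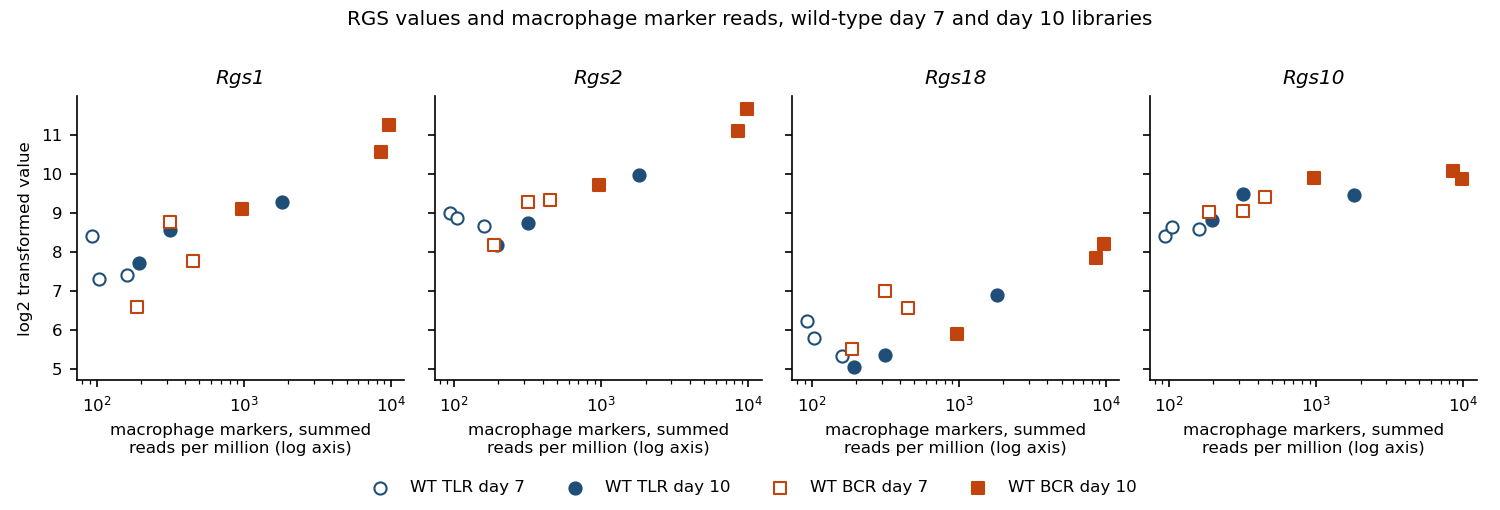
Log2 values of Rgs1, Rgs2, Rgs18 and Rgs10 against summed RPM of 14 macrophage markers (log axis) in the 12 WT TLR and BCR libraries of days 7 and 10. The 2 BCR day 10 libraries with 8562 and 9784 RPM hold the highest Rgs1, Rgs2 and Rgs18 values, while Rgs10 is nearly level among the BCR day 10 libraries.

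In LPS cultures, 7 members passed between day 0 and WT day 4 (2 higher, 5 lower; 58% of 20331 genes). Rgs10 and Rgs16 were the higher ones, and Rgs13 was the 1 not called. Rgs2 fell from 13.04 or more to 9.25, 9.56 and 9.65 (-3.80 ± 0.26, adjusted p 9.25e-14). Day 0 and LPS libraries differ in depth group, sex and age, which cannot be told apart from culture here. From day 4 to day 7 in WT LPS 1 member passed (8.4% of genes), Rgs13, which went from 7.12, 6.88 and 7.15 to 5.26, 5.61 and 5.94 (-1.45 ± 0.33, adjusted p 0.0043). The other 7 members had differences of 0.16 to 1.12 and did not pass. Rgs1 passed after correction for GC content and length (1.15, adjusted p 0.0205), and Rgs14 when these groups were fitted alone (0.55, adjusted p 0.029).

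Genotypes were compared within each culture and day. At LPS day 7, where sex, age and depth group match, 3 members were lower in dEx1A (7.08% of genes passed). Rgs2 was at 8.01, 8.35 and 7.79 against 9.53, 9.90 and 9.94 in WT (-1.74 ± 0.26, adjusted p 1.39e-05). Rgs16 was at 7.07, 7.49 and 7.38 against 8.08, 8.40 and 8.30 (-0.95 ± 0.20, adjusted p 0.00163). Rgs1 was at 5.05, 5.86 and 4.70 against 6.41, 7.16 and 7.11 (-1.69 ± 0.41, adjusted p 0.00608), with 10 to 32 reads in dEx1A. The Rgs1 call was lost without dEx1A replicate 3 (adjusted p 0.0545) and with the count model (-2.24, adjusted p 0.118). For each of these 3 genes every dEx1A library lay below every WT library. Without WT replicate 1 Rgs10 passed as lower (-0.78, adjusted p 0.0414), and without dEx1A replicate 2 Rgs13 did (-1.43, adjusted p 0.00154). Macrophage markers summed to 187 to 292 RPM in dEx1A and 213 to 262 in WT libraries of this comparison. B cell markers were lower in dEx1A, at 2763 to 3577 against 4865 to 5213 RPM. T cell markers were higher, at 59.9 to 72.2 against 29 to 32.2 RPM, with 2 of 10 at 0 in each group. NK cell markers were at 4.67 to 5.65 against 0.769 to 1.02 RPM, with 2 and 4 of 6 at 0. The part of these cell types in the differences was not tested.

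At LPS day 4, 6 members passed (2 higher, 4 lower in dEx1A; 24.4% of genes). Rgs16 read 5.41, 5.73 and 5.45 in dEx1A against 7.93, 8.20 and 8.18 in WT (-2.57 ± 0.20, adjusted p 2.82e-11), and Rgs10 read 7.34, 7.75 and 7.82 against 9.24, 9.39 and 9.56 (-1.76 ± 0.22, adjusted p 4.51e-07). The dEx1A values of Rgs10 lay within the range of day 0. Rgs1 (-1.45 ± 0.41, adjusted p 0.00886) and Rgs13 (-1.18 ± 0.33, adjusted p 0.00801) were also lower, Rgs1 with 9 to 14 reads. Rgs18 was higher, at 7.24, 7.11 and 6.60 against 5.43, 5.45 and 5.33 (1.58 ± 0.29, adjusted p 0.000172), and Rgs19 by 0.45 ± 0.13 (adjusted p 0.00939), a call lost without WT replicate 2 (adjusted p 0.0529). Depth group goes with genotype here. After correction for GC content and length the differences were -2.39 for Rgs16, -1.60 for Rgs10, -1.85 for Rgs1, -1.54 for Rgs13, 1.19 for Rgs18 and 0.62 for Rgs19, and all 6 still passed.

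In TLR cells at day 4, 2 members passed (7.23% of genes). Rgs1 was higher in dEx1A, at 10.36, 10.55 and 10.73 against 8.72, 8.59 and 9.42 (1.64 ± 0.41, adjusted p 0.0109), and Rgs16 lower, at 4.70, 4.61 and 5.07 against 5.96, 5.67 and 5.26 (-0.84 ± 0.20, adjusted p 0.00828). The Rgs1 difference has the opposite sign to that in LPS cells, although the difference between cultures was not tested. Neither call held when the 2 groups were fitted alone (adjusted p 0.0981 and 0.193). Without WT replicate 1 both were lost (adjusted p 0.0703 and 0.101), and Rgs1 also without WT replicate 2 or dEx1A replicate 3 (adjusted p 0.0751 and 0.0675). At day 7, 3 members passed (54.8% of genes). Rgs2 was at 6.60, 6.66 and 5.96 against 8.99, 8.66 and 8.88 (-2.44 ± 0.26, adjusted p 9.9e-09), Rgs16 at 6.47, 6.20 and 6.65 against 4.55, 4.81 and 5.02 (1.65 ± 0.20, adjusted p 9.9e-08), and Rgs18 at 4.16, 4.21 and 4.70 against 6.24, 5.33 and 5.80 (-1.43 ± 0.29, adjusted p 0.000161). Genotype cannot be told apart from depth group, sex and age in these values. Marker sums in dEx1A and WT were 25.1 to 27.9 and 2.82 to 7.13 RPM for feeder cells, 257 to 350 and 93.2 to 160 for macrophages, and 48.8 to 55.6 and 6.87 to 9.27 for NK cells (1 and 2 of 6 markers at 0), and their part in these differences was not tested. With correction for GC content and length they were -1.85, 1.21 and -1.16, each still past the threshold, and Rgs1 passed as well (1.37, adjusted p 0.00159). Rgs13 passed without dEx1A replicate 2 (-0.96, adjusted p 0.0249) and Rgs14 without WT replicate 2 (0.93, adjusted p 0.0287).

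In BCR cells at day 4 only 1.86% of genes passed, among them 1 member. Rgs2 was at 9.84, 10.15 and 9.38 in dEx1A against 8.39, 7.94 and 7.86 in WT (1.73 ± 0.26, adjusted p 8.6e-05). That call did not hold when the 2 groups were fitted alone (adjusted p 0.0799). Rgs1 was at 10.48, 9.49 and 10.24 against 8.72, 8.28 and 8.94, groups that did not overlap, and missed the threshold (1.42 ± 0.41, adjusted p 0.0671), but passed after correction for GC content and length (adjusted p 0.0139) and with the count model (adjusted p 0.0314). At day 7, 5 members passed (3 higher, 2 lower; 50.8% of genes). Rgs2 was now lower, at 7.22, 6.56 and 7.05 against 9.27, 9.34 and 8.19 (-1.99 ± 0.26, adjusted p 2.34e-07), and Rgs1 higher, at 9.30, 9.58 and 9.90 against 8.78, 7.77 and 6.60 (1.88 ± 0.41, adjusted p 0.000307). Rgs13 held 2 reads in all 3 dEx1A libraries against 103 in WT, 31.7-fold lower in RPM (95% exact interval 8.55 to 265). Feeder marker reads were at 286 to 434 RPM in dEx1A and 24.7 to 31 in WT. Macrophage markers were at 252 to 2082 RPM in dEx1A and 187 to 451 in WT, platelet markers at 5.26 to 114 and 7.61 to 15.4, neutrophil markers at 6.31 to 360 and 1.43 to 67.6, and NK cell markers at 17.1 to 169 and 9.88 to 15. Their part was not tested. Rgs16 (0.48) and Rgs19 (0.42) did not pass after correction for GC content and length (0.10, adjusted p 0.706, and 0.07, adjusted p 0.53). With that correction Rgs14 (-0.74, adjusted p 0.000288) and Rgs10 (-0.70, adjusted p 0.00279) passed as lower, where they had been at -0.01 and -0.50 without it. Rgs10 also passed with centring, the stricter filter and voom (adjusted p 0.0229 to 0.0496). Rgs16 was also lost without any 1 of 4 libraries (adjusted p 0.0681 to 0.196) and Rgs19 without dEx1A replicate 1 (adjusted p 0.0685). Rgs10 passed as lower without dEx1A replicate 1 (-0.78, adjusted p 0.00578), and Rgs18 without replicate 3 of either genotype (adjusted p 0.00988 and 0.0264).

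**Figure D4:**
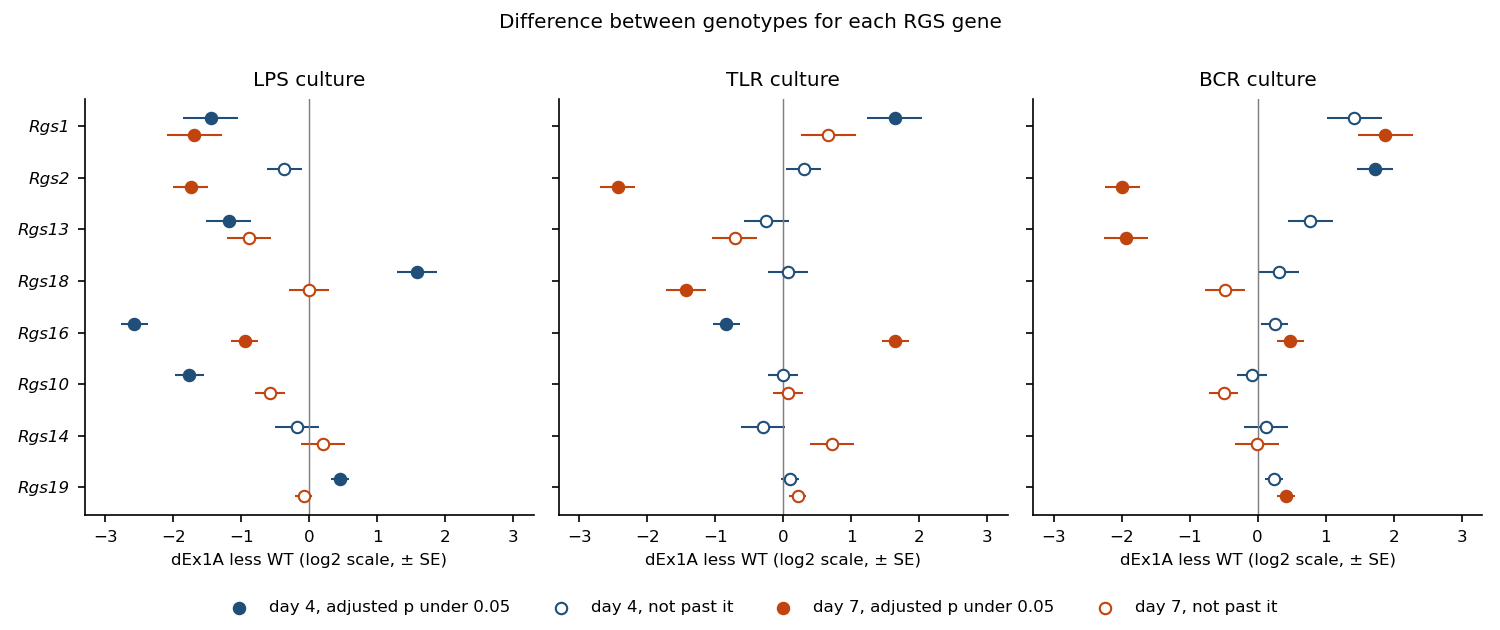
Difference dEx1A less WT in each member (log2 scale, bars ± SE) in the 3 cultures, day 4 in blue and day 7 in red; filled points passed at an adjusted p under 0.05. Rgs1 is left of 0 in LPS and right of 0 in TLR and BCR, and Rgs2 is left of 0 at day 7 in all 3 cultures.

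The genotype difference changed between day 4 and day 7 for 4 members in LPS (5.48% of genes passed), 3 in TLR (49.4%) and 2 in BCR (33.9%). Between these days the dEx1A libraries went from the deeper to the shallower group and the WT libraries of the same culture stayed in one, which cannot be told apart from the change in genotype difference. In LPS cells Rgs16 (1.63 ± 0.28, adjusted p 0.000638) and Rgs10 (1.19 ± 0.31, adjusted p 0.019) rose more in dEx1A than in WT, and Rgs18 (-1.58 ± 0.42, adjusted p 0.0202) and Rgs2 (-1.38 ± 0.37, adjusted p 0.0213) changed toward lower values. Of these Rgs16 alone passed with every library left out in turn; the other 3 lost the call without 1 of 2 to 4 libraries (adjusted p 0.0507 to 0.0861), and the count over members then ran from 2 to 5. The libraries were WT day 4 replicates 1 (Rgs2) and 3 (Rgs10), dEx1A day 4 replicates 1 (Rgs10 and Rgs18) and 2 (Rgs2), WT day 7 replicates 1 (Rgs10 and Rgs18) and 2 (Rgs2), and dEx1A day 7 replicates 2 (Rgs10) and 3 (Rgs2). In TLR cells the changes were 2.48 ± 0.28 for Rgs16 (adjusted p 1.77e-07), -2.74 ± 0.37 for Rgs2 (adjusted p 1.81e-06) and -1.50 ± 0.42 for Rgs18 (adjusted p 0.00366). In BCR cells they were -3.72 ± 0.37 for Rgs2 (adjusted p 9.78e-09) and -2.71 ± 0.46 for Rgs13 (adjusted p 5.36e-05). Rgs2 was the 1 member that passed in all 3 cultures, in each toward lower values in dEx1A at day 7. With single libraries left out Rgs19 also passed in LPS (without WT day 7 replicate 3, adjusted p 0.0492), Rgs14 in TLR (without WT day 4 replicate 3, dEx1A day 4 replicate 2 or WT day 7 replicate 2, adjusted p 0.0131 to 0.0333) and Rgs18 in BCR (without day 7 replicate 3 of either genotype, adjusted p 0.0154 and 0.0321). The LPS call of Rgs10 was also lost with centring (adjusted p 0.0582) and with the groups fitted alone (adjusted p 0.057). That of Rgs18 was lost with the count model (adjusted p 0.0635). After correction for GC content and length Rgs19 passed in LPS (-0.68, adjusted p 0.000568) and TLR (-0.45, adjusted p 0.00507), and Rgs14 in BCR (-0.88, adjusted p 0.00333). Rgs19 also passed in LPS with centring (adjusted p 0.0275).

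Within dEx1A cells, 7 members passed from day 4 to day 7 in LPS (3 higher, 4 lower; 34.1% of genes), 5 in TLR (4 higher, 1 lower; 62.1%) and 5 in BCR (3 higher, 2 lower; 53.9%). Here the depth group differs between the days. In LPS the higher members were Rgs10 (1.54), Rgs14 (0.93) and Rgs16 (1.78), and the lower ones Rgs2 (-1.07), Rgs13 (-1.15), Rgs18 (-1.24) and Rgs19 (-0.38). Without dEx1A day 7 replicate 3 the LPS count fell to 4 with Rgs13, Rgs14 and Rgs19 lost (adjusted p 0.0711, 0.0862 and 0.0683). These 3 were also each lost without 1 to 3 other libraries (adjusted p 0.0514 to 0.175). Rgs14 rose in TLR (3.55 ± 0.32, adjusted p 1.79e-10) and BCR (2.51 ± 0.32, adjusted p 3.38e-07). Rgs2 did not pass in TLR (0.33 ± 0.26, adjusted p 0.275), where it passed as higher after correction for GC content and length (1.08, adjusted p 0.000429), and it fell in BCR (-2.85 ± 0.26, adjusted p 5.44e-10). Rgs16 rose in TLR by 1.65 (adjusted p 3.35e-08) and Rgs10 by 0.98 (adjusted p 0.000278), while in BCR Rgs18 rose by 1.56 (adjusted p 7.15e-05) and Rgs19 by 0.59 (adjusted p 0.000331). The BCR call of Rgs19 was lost after correction for GC content and length (0.16, adjusted p 0.137). Rgs13 went from 72 reads to 2 in BCR, 24.5-fold lower (95% exact interval 6.54 to 206). Rgs1 fell in TLR, from 10.36 or more to 8.47 or less (-2.18 ± 0.41, adjusted p 2.86e-05). Rgs19 passed in TLR at 0.48, but stood at -0.030 (adjusted p 0.787) after that correction. With it Rgs13 (1.13, adjusted p 0.00321) and Rgs18 (0.68, adjusted p 0.0398) also passed as higher in TLR, and Rgs1 in LPS (1.25, adjusted p 0.00458). Rgs10 passed in BCR without day 7 replicate 2 (0.72, adjusted p 0.00847).

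Between dEx1A cultures, TLR against BCR gave 4 lower members at day 4 (16.7% of genes) and 3 at day 7 (31.5%). At day 4 Rgs2 differed by -3.71 ± 0.26 (adjusted p 2.2e-12), with TLR at 6.07, 5.99 and 6.17. Rgs16 differed by -1.35 ± 0.20 (adjusted p 5.83e-06), Rgs19 by -0.41 ± 0.13 (adjusted p 0.0237), and Rgs13 held 0 reads in TLR against 72 in BCR, at least 22.7-fold higher in BCR with 3 reads over the group as floor. The Rgs19 call was lost without any 1 of 4 libraries (adjusted p 0.0559 to 0.102). At day 7 Rgs1 (-1.23, adjusted p 0.0199), Rgs18 (-1.53, adjusted p 0.000141) and Rgs19 (-0.52, adjusted p 0.00203) were lower in TLR. Rgs1 lost its call without TLR or BCR replicate 3 (adjusted p 0.0612 and 0.0779) and with centring (adjusted p 0.0575), and Rgs19 with these groups fitted alone (adjusted p 0.103). Marker sums in these TLR and BCR libraries were 25.1 to 27.9 and 286 to 434 RPM for feeder cells, 257 to 350 and 252 to 2082 for macrophages, and 4.71 to 6.62 and 5.26 to 114 for platelets, and their part was not tested. LPS against TLR gave 7 members at day 4 (6 higher, 1 lower; 45.3% of genes) and 5 at day 7 (4 higher, 1 lower; 17.4%). Rgs1 was the lower one on both days, by -6.22 ± 0.41 (adjusted p 1.12e-13) and -3.16 ± 0.41 (adjusted p 6.31e-07). Rgs2 was higher in LPS by 3.05 ± 0.26 (adjusted p 4.51e-11) at day 4 and 1.64 ± 0.26 (adjusted p 1.81e-05) at day 7. Rgs18 was higher by 2.72 (adjusted p 7.8e-09) and 1.39 (adjusted p 0.000879), and Rgs16 by 0.74 (adjusted p 0.00347) and 0.87 (adjusted p 0.0019). Rgs14 (2.29, adjusted p 1.12e-06) and Rgs19 (0.91, adjusted p 9.06e-07) were higher at day 4 and did not pass at day 7. Rgs13 was at least 63.3-fold higher in LPS at day 4, with 209 reads against 0. At day 7 its call was lost without LPS replicate 2 (0.60, adjusted p 0.192) or TLR replicate 3 (adjusted p 0.104). At day 4 these 2 dEx1A groups share sex, age and depth group, as they do at day 7. GC offsets in LPS and TLR were -0.62 to 0.24 and -1.54 to -0.34 at day 4, and 0.69 to 1.03 and 0.88 to 1.46 at day 7. Feeder markers summed to 0.563 to 1.08 and 91.7 to 170 RPM at day 4, and 0.538 to 1.32 and 25.1 to 27.9 at day 7. NK cell markers at day 7 were at 4.67 to 5.65 and 48.8 to 55.6 RPM. The part of GC offset and of these cells was not tested.

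Other genes of the pathway were counted from lists. Of 13 further RGS genes listed, 10 were in the tables and 5 passed the filter, Rgs3, Rgs9, Rgs11, Rgs12 and Rgs20. At WT TLR and BCR day 4 against day 0, 1 of the 5 was higher and 1 lower in each, and Rgs3 fell by 2.15 (adjusted p 6.72e-05) and 1.26 (adjusted p 0.00621). Against 48.3% of all genes called in TLR, 50.6% in BCR and 58% in LPS, several of these lists lie near the background, and no list was tested as a set. Receptors for chemoattractants and lipids counted 13 lower and 5 higher of 28 in TLR (median difference -0.55) and 18 lower and 3 higher in BCR (median -1.14). S1pr1, the egress receptor for sphingosine-1-phosphate, fell by 6.79 (adjusted p 8.59e-14) in TLR and 5.89 (adjusted p 3.36e-13) in BCR, and Ccr6 by 4.72 and 5.15. Of the receptor kinases and arrestins, 4 of 7 fell in TLR (median -1.19) and 5 in BCR (median -1.75). Grk3, a receptor kinase, fell by 3.52 in TLR (adjusted p 6.01e-06) and 3.79 in BCR (adjusted p 2.19e-06). Alpha subunits were mixed, 3 higher and 3 lower of 13 in TLR and 3 and 5 in BCR, and Gnaz, the subunit Gz, rose by 4.89 (adjusted p 4.82e-11) and 3.27 (adjusted p 8.3e-09). Of 14 beta and gamma subunits, 5 were higher and 1 lower in TLR, and 6 and 2 in BCR. Of 18 effectors, 4 were higher and 7 lower in TLR, 5 and 8 in BCR, and phospholipase Plcb2 fell by 2.96 and 4.32. Of 12 other regulators of G proteins, 3 were higher and 6 lower in each culture. In WT LPS cells at day 4 the counts were 6 higher and 16 lower among receptors, 3 and 3 among alpha subunits, 8 and 2 of 15 among beta and gamma subunits, 3 and 5 among effectors and 1 and 3 among receptor kinases and arrestins.

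From day 4 to day 7 some of these genes moved the other way, in fits that called 30.5% of all genes in BCR and 36.3% in TLR. In BCR 13 of 28 receptors were higher and 4 lower, and in TLR 9 and 8, with S1pr1 up by 3.16 (adjusted p 2.66e-09) and 4.13 (adjusted p 1.18e-10). Arrestin Arrb1 rose in both, in BCR by 1.62 (adjusted p 0.00172) and in TLR with an adjusted p of 0.00733. Pik3cg, the catalytic subunit of the phosphoinositide kinase that beta-gamma subunits activate, rose by 4.31 (adjusted p 5.79e-09) in BCR and 5.70 (adjusted p 1.94e-10) in TLR. At LPS day 7 between genotypes, where 7.08% of all genes passed, these lists held 2 receptors higher and 3 lower of 28, 2 alpha subunits higher and 1 lower of 13, 2 of 15 beta and gamma subunits and 1 of 18 effectors lower. Gnaz was higher in dEx1A by 2.24 (adjusted p 1.79e-07) and Gnaq lower by 0.90 (adjusted p 0.00132). The chemokine receptors Cxcr4 and Cxcr5 changed in opposite directions, Cxcr4 by 1.13 (adjusted p 0.00167) and Cxcr5 by -1.04 (adjusted p 1.02e-06).

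Across the 15 group means the members did not move as 1 set. Pearson's r, given as a description over 15 means that share the day 0 libraries' scaling and differ in depth and GC offset, was highest for Rgs2 with Rgs13 (0.79), Rgs18 with Rgs19 (0.78) and Rgs2 with Rgs18 (0.75). Rgs1, though it lies between Rgs13 and Rgs18, had r of 0.12 with Rgs2, -0.30 with Rgs13 and -0.05 with Rgs18, and its lowest r was -0.53, with Rgs16. Among 8126 genes whose group means span at least 2 log2 units, those most like each member were Arl4c, Syde1 and Enpp2 for Rgs1 (r 0.88, 0.87 and 0.86), Sh3kbp1, Sesn1 and Gm6377 for Rgs2 (0.93, 0.91 and 0.91), and Foxp1, Cpm and Kcnj1 for Rgs13 (0.90, 0.88 and 0.86). For Rgs18 they were Cblb, Lpcat2 and Lilra6 (0.94, 0.93 and 0.93), and for Rgs16 Acoxl, Plk3 and the pseudogene Gm12182 (0.94, 0.94 and 0.91). For Rgs10 they were Gadd45b, 6430548M08Rik and Prg2 (0.90 each), and for Rgs14 they included Ocel1 and Tor4a (0.97 and 0.96). Rgs19, with a span of 1.54, was below the span set for this ranking.

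Ordered by group mean, neighbouring groups mostly overlapped. Of the 14 neighbouring pairs, 1 was apart for Rgs10, Rgs13, Rgs18 and Rgs19, 2 for Rgs14, 3 for Rgs1 and Rgs2, and 4 for Rgs16. Over all 105 pairs of groups, 64 to 84 did not overlap, fewest for Rgs19 and most for Rgs16. These counts were not made for all genes, so they do not set the members apart from other genes. For Rgs2 the breaks lay below day 0, below WT TLR day 7 and below dEx1A LPS day 7. For Rgs1 they lay below WT TLR day 7, WT LPS day 7 and dEx1A LPS day 7, although WT LPS day 7 overlapped WT BCR day 7, which is not its neighbour. For Rgs16 they lay below WT LPS day 4, dEx1A LPS day 7, dEx1A BCR day 4 and dEx1A LPS day 4. Day 0 ranked first for Rgs1, Rgs2, Rgs14, Rgs18 and Rgs19 and last for Rgs10 and Rgs16.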

How the data were processed

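The 45 libraries came from TruSeq Stranded Total RNA kits sequenced as single-end reads, per the labels' protocols. The authors deposited 2 tables of 28196 genes with log2 variance-stabilised values of RSEM gene estimates, 21 WT columns in one and 39 columns of both genotypes in the other, with 15 shared. The submitters' processing notes name DESeq2 1.22.2, R 3.5.1, RSEM 1.3.0 and STAR 2.6.0c. They also name Trim Galore 0.6.0 and FastQC 0.11.8, with the builds mm10, GRCm38.p6 and GRCh38.p12 in no stated role. The members and lists were chosen with earlier results of these data known. Members were taken by symbol, and up to 3 genes of each pathway list could be named per comparison, those called with groups apart and the largest difference.

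Each table was fitted with limma 3.58.1 (R 4.3.3) over all its groups, with a mean-variance trend, on genes at least 1 above the floor of 3.04 in 3 or more libraries (19497 and 20331 genes), and p-values were adjusted by Benjamini-Hochberg per comparison at 0.05. A single interaction term tested differences between steps. The fit was tested on simulated data. Reads were recovered by inverting the transformation. In values under 20 reads, 94.0% to 100% per library came out whole within 0.1. Depth, marker sums, Rgs13 ratios and RPKM (GENCODE M21 lengths of the longest coding transcript) rest on these reads. Exact intervals cover counting error at 95% only. Alternatives were the groups compared alone, no filter, a filter at 2 above the floor, median centring, a GC and length correction, voom on recovered reads, no trend, a replicate block and leaving out single libraries. Leaving out the 3 day 10 libraries highest in Lyz2 was added after seeing the data. Python 3.11.15, pandas 2.3.3 and numpy 2.4.6 were used.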

Additional observations from a re-analysis of the deposited data

Results flagged for a closer look

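The genotype difference of 9 member and culture pairs changed between day 4 and day 7 by the test of that change itself (dEx1A step less WT step, log2 scale, limma with Benjamini-Hochberg adjustment). In LPS cultures the changes were 1.63 for Rgs16, 1.19 for Rgs10, -1.58 for Rgs18 and -1.38 for Rgs2. In LPS the WT values of Rgs16 and Rgs10 were already high at day 4, and the dEx1A values rose between the days. In TLR cultures they were 2.48 for Rgs16, -2.74 for Rgs2 and -1.50 for Rgs18, and in BCR cultures -3.72 for Rgs2 and -2.71 for Rgs13. For Rgs2 in BCR, dEx1A lay above WT at day 4 and below it at day 7. For Rgs16 in TLR, dEx1A lay below WT at day 4 and above it at day 7. Between day 4 and day 7 the dEx1A libraries of all 3 cultures went from the deeper to the shallower of the 2 depth groups while the WT libraries of the same culture stayed in one, so this change cannot be told apart from depth and GC offset.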

How the results depend on the processing

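Among single members, 1626 of the results with 1 library left out stayed on their side of the threshold, 79 lost and 23 gained a call, and none called reversed. Members called in neither fit changed sign in 88 of the former. Under the other settings 1920 stayed, 58 lost and 52 gained a call, and uncalled members changed sign in 50. After correction for GC content and length 2 results for Rgs19 reversed: dEx1A TLR day 7 against day 4 was -0.030 (adjusted p 0.787), and the genotype change between days in TLR was -0.45 (adjusted p 0.00507). The cause was not tested.

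Counts of members called moved as follows. Counts over all genes are given only for voom, so the others are not read as results about the members. With the GC and length correction they were 3 for TLR against BCR at day 4 (1 in the reported fit), 6 at day 10 (3), 2 for dEx1A against WT at BCR day 4 (1), 2 for WT LPS day 7 against day 4 (1) and 1 for the difference of TLR and BCR steps from day 4 to day 7 (0). Fitting only the groups compared gave 0 for TLR day 10 against day 7, BCR day 10 against day 7, TLR against BCR at day 10, and dEx1A against WT at TLR day 4 and BCR day 4, 3 for dEx1A against WT at BCR day 7 (5), 2 for WT LPS day 7 against day 4, and 1 for the step difference from day 4 to day 7, and that setting has fewer samples. For WT TLR against BCR at day 7 (1) the count was 2 with the stricter filter, without the trend and with the replicate block, and 0 without a filter, with centring and with voom. For TLR day 10 against day 7 (2) it was 1 with centring, without the trend and without the 3 libraries highest in Lyz2, and 0 without a filter and with voom. Voom also gave 2 at dEx1A against WT BCR day 4 and 2 for TLR against BCR at day 4. Over all genes voom called 451 and 1920 there. It called 1218 for WT TLR against BCR at day 7 and 1056 for TLR day 10 against day 7. Counts without the 3 libraries highest in Lyz2 are not given for BCR day 10, where that setting leaves 1 library. With the replicate block TLR against BCR at day 10 gave 6.

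With single libraries left out, counts ran from 3 to 6 for TLR day 7 against day 4, 0 to 1 for TLR day 10 against day 7, 2 to 4 for BCR day 10 against day 7, 0 to 1 and 1 to 6 for TLR against BCR at days 7 and 10, 0 to 2 for dEx1A against WT at TLR day 4, 2 to 4 at LPS day 7, 4 to 6 for dEx1A LPS day 7 against day 4, 2 to 3 for dEx1A TLR against BCR at day 7, and 2 to 5, 3 to 4 and 2 to 3 for the genotype changes between days in LPS, TLR and BCR. The TLR less BCR step from day 7 to day 10 ran from 0 to 1. Shares of all genes are not given beside these ranges, so they are not read as results about the members.

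Whether replicate numbers pair the libraries is not settled by their correlations. Same-numbered WT libraries of the TLR and BCR cultures and day 0 had correlations of -0.61 to 0.82 (25 of 63 over 0.1). Same-numbered dEx1A libraries had a median of 0.12 (23 of 45 over 0.1), against -0.05 for different numbers (33 of 90 over 0.1). With the replicate block Rgs16 in dEx1A against WT at BCR day 7 missed the threshold (adjusted p 0.0502). Centring moved all differences of a comparison by -0.21 to 0.36, most at BCR day 10 against day 0. Low counts limit Rgs13, Rgs18 and, in LPS cells, Rgs1, and 3 libraries per group limit the precision of every comparison.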
